A study of Homo sapiens with 5 samples.

Results

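Caspases are cysteine proteases that take apart the dying cell or cut out inflammatory signals, and APAF1 is the scaffold that activates caspase-9. The 8 genes described here are CASP1, CASP2, CASP4, CASP6, CASP8, CASP9, CASP10 and APAF1, taken by their symbols from the 26485 genes of the count table. Initiator caspases (2, 8, 9 and 10) are activated on platforms of other proteins. An executioner caspase such as caspase-6 is cut by other caspases and then cleaves structural proteins. Caspase-1 and caspase-4 belong to the inflammatory branch, which cuts cytokine precursors and gasdermin D. Caspases are made as inactive precursors, so that mRNA levels give the supply of a precursor and not protease activity. In cells with damaged DNA, the route through mitochondria, cytochrome c, APAF1 and caspase-9 is the classical one, and caspase-2 is activated on a platform built by PIDD1 and CRADD.

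The mRNA of RPE1 cells was sequenced in 5 libraries. RPE1 is an immortalized human cell line that was made from retinal pigment epithelium and is labelled wild type. Of the libraries, 2 were from cells given DMSO, 2 from cells given 0.2 μM doxorubicin and 1 from cells given 0.34 μM doxorubicin, each for 18 h, and the drug was itself diluted in DMSO. Doxorubicin is a DNA intercalator and inhibitor of topoisomerase 2. The concentrations are those of the sample titles, while the treatment protocol in the labels gives 200 and 340 μM. The study's methods call the libraries biological replicates without saying whether they came from separate cultures, so that the p-values measure the spread between these libraries, which may be technical. The 0.34 μM condition is a single library.

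Between 23773061 and 36725345 reads or read pairs were counted per library, with normalization factors between 0.975 and 1.04. Of the defining markers of retinal pigment epithelium, 3 of 12 (MITF, OTX2 and RDH5) were above 1 CPM in all libraries, while RPE65 had between 3 and 8 counts and TYR between 0 and 5. CPM is the count of a gene scaled to the total of its library, after TMM normalization. All libraries contain bulk RNA, so that fewer cells of a stage and less RNA per cell cannot be told apart.

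The comparison of the 3 doxorubicin libraries with the 2 DMSO libraries asks which of these genes responded to the drug. CASP2, an initiator, fell to 0.483 of its DMSO level, and it was the only one of the 7 tested genes to pass the threshold. CASP1 was 2.63-fold and CASP9 1.62-fold higher in doxorubicin, with no overlap between the groups, but neither passed. APAF1, CASP8, CASP6 and CASP4 overlapped between the groups. CASP10 was almost absent and was not tested. The test was the quasi-likelihood test of edgeR, with a Benjamini-Hochberg adjusted p under 0.01 over the 14187 genes that passed the filter on low counts. This is 1 gene of 7, and of all genes tested 4.02% were called, 2.73% lower and 1.29% higher. The groups did not overlap in 3 of the 7 tested genes, as in 47.7% of all genes tested. The median log2 fold change was -0.091 over the 7 genes and 0.013 over all genes tested.

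**Figure D1:**
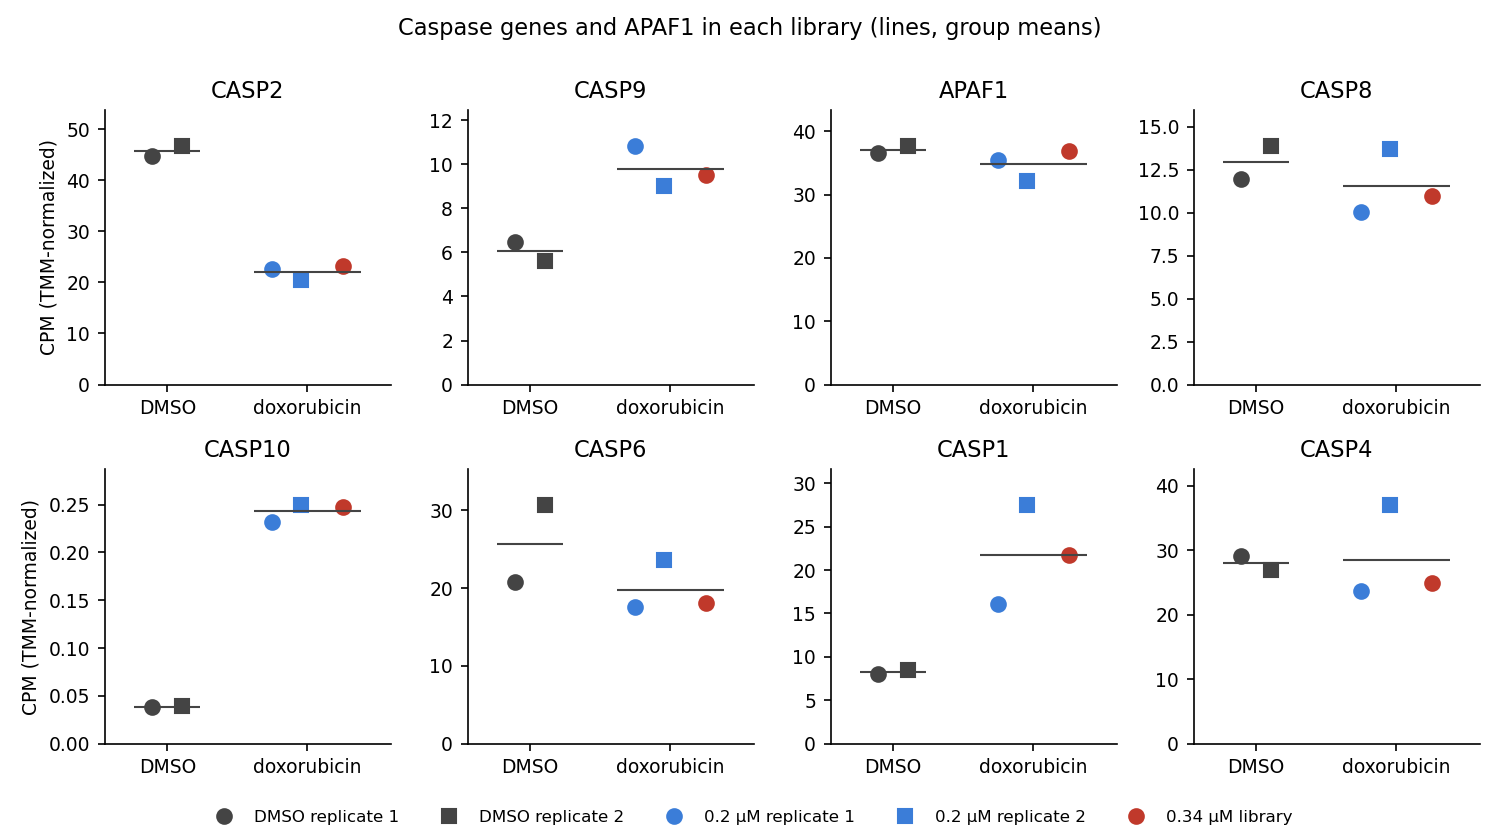
Each panel plots the CPM (vertical axis, from 0) of one gene in the 2 DMSO libraries (grey), the 2 libraries of 0.2 μM doxorubicin (blue) and the library of 0.34 μM (red), with lines at the group means. CASP2 lies between 20.5 and 23.1 CPM in doxorubicin against 44.8 and 46.7 in DMSO, CASP1 and CASP9 are higher in all doxorubicin libraries, and CASP10 stays at or below 0.249 CPM.

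Of the initiator caspases, CASP2 (chromosome 7 of GRCh38, 143288351 to 143307696) had 44.8 and 46.7 CPM in the DMSO libraries. It had 22.6 and 20.5 CPM in the 0.2 μM libraries and 23.1 CPM in the 0.34 μM library. Thus every doxorubicin library was well below both DMSO libraries, and libraries of one treatment lay close together. The means were 45.7 ± 1.35 CPM (SD, n = 2) in DMSO and 22.1 ± 1.42 (SD, n = 3) in doxorubicin. The log2 fold change was -1.05 ± 0.15 (SE, edgeR adjusted p = 0.00754), with a 95% interval from -1.40 to -0.70. Of all genes tested, 14.2% had a change at least as large in either direction. The size of the change barely depended on single libraries, but the call did, whichever library was left out. With a doxorubicin library left out, fewer of all genes were called as well (between 178 and 207, against 571). Leaving out single libraries gave log2 fold changes from -1.09 to -1.0. The call was lost in each case. With DMSO replicate 1 or 2 removed, the adjusted p in edgeR was 0.0210 or 0.0272. Removing a 0.2 μM library gave 0.0443 (replicate 1) or 0.0203 (replicate 2), and removing the 0.34 μM library gave 0.0492. DESeq2 called CASP2 with an adjusted p of 1.93e-07.

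The RefSeq sequence before the start of CASP2 is shown because CASP2 is the one gene called, beside that of APAF1, whose groups overlapped. Both are 250 bases long, on the plus strand of GRCh38.p14, with CCAAT boxes (CCAAT on either strand) in capitals:
CASP2, chr7:143288101-143288350: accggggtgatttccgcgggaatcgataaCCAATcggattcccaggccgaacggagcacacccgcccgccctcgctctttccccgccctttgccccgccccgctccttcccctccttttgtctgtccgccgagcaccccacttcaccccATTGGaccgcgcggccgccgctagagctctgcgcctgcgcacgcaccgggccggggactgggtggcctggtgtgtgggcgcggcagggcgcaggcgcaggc
APAF1, chr12:98645040-98645289: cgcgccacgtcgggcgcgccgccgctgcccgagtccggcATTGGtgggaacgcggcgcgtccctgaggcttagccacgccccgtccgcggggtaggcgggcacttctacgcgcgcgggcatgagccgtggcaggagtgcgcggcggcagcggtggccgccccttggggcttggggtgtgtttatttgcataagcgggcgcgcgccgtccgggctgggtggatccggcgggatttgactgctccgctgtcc

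The CASP2 sequence holds 2 CCAAT boxes and 4 GC boxes (GGGCGG on either strand), and that of APAF1 holds 1 of each. CASP4 and a start of CASP8, whose groups overlapped, also hold 2 CCAAT boxes. Each CASP9 sequence holds 8 GC boxes and that of CASP6 holds 3. A link of these boxes to the changes was not tested. A CCAAT box was found in 32% and a GC box in 42.6% of the 35116 RefSeq sequences of the same length. These were not matched for their share of G and C, which was 71.2% for CASP2 and 73.6% for APAF1. Neither sequence holds an E2F motif (TTTCGCGC, TTTGGCGC, TTTCCCGC or TTTGCCGC on either strand, in 2.79% of all sequences), a TATA box (TATAAA, 10.7%), a cell cycle homology region (TTTGAA, 13.3%) or a full p53 response element (0.0256%). Sequences were matched for 6 of the 8 genes, and the second annotated start of CASP2 has 1 TTTGAA match and neither a CCAAT nor a GC box. A match of letters is a description and not a binding site.

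The pattern of CASP2 over the libraries was most like those of DCLRE1C and SLC6A9, among 11755 other genes whose log2 CPM averaged 1 or more. After each gene's mean was removed, their log2 CPM differed from that of CASP2 by a root mean square of 0.063 and 0.068 over the 5 libraries. In all, 299 genes lay within 0.2. DCLRE1C had a log2 fold change of -0.99 and SLC6A9 one of -1.0. Such likeness over 5 libraries in 2 groups is shared by many genes.

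PIDD1 and CRADD build the platform that activates caspase-2. PIDD1, the death domain scaffold, had 5.80 and 9.32 CPM in DMSO and 14.6, 23.5 and 19.5 CPM in doxorubicin. The groups did not overlap, and the log2 fold change was 1.34 ± 0.31 (SE), which did not pass the threshold (adjusted p = 0.0337 in edgeR) but passed with DESeq2 (adjusted p = 0.000507). CRADD, the adaptor between PIDD1 and caspase-2, had a log2 fold change of 0.42 ± 0.28 (SE, edgeR adjusted p = 0.358). Both were chosen after their values were seen.

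CASP9 (chromosome 1, 15491401 to 15524912) encodes the initiator that is activated on APAF1 after the release of cytochrome c. It had 6.49 and 5.6 CPM in DMSO, 10.8 and 9.02 CPM at 0.2 μM and 9.51 CPM at 0.34 μM doxorubicin. All doxorubicin libraries were above both DMSO libraries, in a gene with 143 to 345 counts per library. The log2 fold change was 0.69 ± 0.22 (SE, 95% interval 0.18 to 1.21), with an adjusted p of 0.0806 in edgeR and 0.0331 from DESeq2, neither of which passed. Fits without single libraries gave values from 0.58 to 0.80.

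APAF1 (chromosome 12, 98645290 to 98735433) is itself known as a target of both p53 and E2F1. It had 36.5 and 37.7 CPM in DMSO, 35.4 and 32.2 CPM at 0.2 μM and 36.9 CPM at 0.34 μM. These values overlapped, and the spread was small in both groups, with means of 37.1 ± 0.802 CPM (SD, n = 2) and 34.8 ± 2.39 (SD, n = 3). The log2 fold change was -0.091 ± 0.15 (SE, edgeR adjusted p = 0.727). Its 95% interval, from -0.45 to 0.26, is the narrowest but one of the 7 genes and corresponds to between 0.734-fold and 1.20-fold.

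CASP8 and CASP10 encode the initiators of the death receptors and lie side by side on chromosome 2, after CFLAR, the gene of their catalytically inactive relative and inhibitor. CFLAR ends 6.45 kb before CASP10, and CASP10 ends 4.06 kb before CASP8. CASP8 (201233463 to 201287711) had 12.0 and 13.9 CPM in DMSO, 10.1 and 13.7 CPM at 0.2 μM and 10.9 CPM at 0.34 μM. The groups overlapped, with a log2 fold change of -0.16 ± 0.21 (SE, 95% interval -0.67 to 0.35, edgeR adjusted p = 0.660).

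CASP10 (201183141 to 201229406) was close to the detection limit. It had 1 and 1 counts in the DMSO libraries, 6 and 6 counts at 0.2 μM and 9 counts at 0.34 μM, and was left out of the test by the filter. Summed over the groups, these 21 counts against 2 give a ratio of 6.30 after normalization (95% exact binomial interval 1.54 to 55.4), which covers counting error only. With the filter removed, its log2 fold change was 2.52 ± 0.95 (SE) and did not pass the threshold (adjusted p = 0.131 in edgeR), and DESeq2 gave no adjusted p. CFLAR had 48.7 and 26.4 CPM in DMSO and 59.0, 59.5 and 68.4 CPM in doxorubicin, a log2 fold change of 0.73 ± 0.27 (SE) that did not pass (adjusted p = 0.119 in edgeR). It was chosen after its values were seen.

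CASP6 (chromosome 4, 109664388 to 109709767), the executioner caspase that cleaves lamin A, overlaps MCUB in the annotation, and the sources used here do not name a strand setting for the counting. It had 20.8 and 30.7 CPM in DMSO, 17.5 and 23.6 CPM at 0.2 μM and 18.0 CPM at 0.34 μM. The DMSO libraries differed by 0.56 on the log2 scale, where the median absolute difference over all genes was 0.36, and the groups overlapped. The log2 fold change was -0.38 ± 0.23 (SE, 95% interval -0.94 to 0.18, edgeR adjusted p = 0.320). Removing DMSO replicate 1 gave -0.65 and removing DMSO replicate 2 gave -0.094, so that its size rests on these libraries.

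In the inflammatory branch, CASP1 (chromosome 11, 105025443 to 105036686) encodes the protease that matures interleukin-1β and interleukin-18. It had 7.97 and 8.54 CPM in DMSO, 16.0 and 27.5 CPM at 0.2 μM and 21.7 CPM at 0.34 μM. The lowest doxorubicin library was well above the highest DMSO library, but the 0.2 μM libraries differed by 0.77 on the log2 scale, against a median absolute difference of 0.29 over all genes. The log2 fold change was 1.40 ± 0.26 (SE, 95% interval 0.76 to 2.03), which did not pass the threshold in edgeR (adjusted p = 0.0190). It passed in edgeR without the filter on low counts (adjusted p = 0.00669). It also passed with DESeq2 (adjusted p = 3.35e-05), which called 2 of the 7 genes, CASP1 and CASP2, where it called 14.3% of the same 14187 genes. Of all genes tested, 8.5% had a change at least as large. Fits without single libraries gave log2 fold changes of CASP1 from 1.20 to 1.58.

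CASP1 is best known from leukocytes, and of 8 leukocyte markers CD3E and SPI1 were at 0 counts in all libraries, while CD14 had at most 2. PTPRC, the gene of CD45, was detected with 5 and 7 counts in the DMSO libraries, against 25, 53 and 72 counts with doxorubicin. The summed level of the 8 markers was between 2.75 and 4.31 CPM in DMSO and between 3.56 and 4.99 CPM in doxorubicin. The sum hides differences between single markers. CSF1R, its main part in DMSO, had 67 and 102 counts in DMSO and 60, 58 and 83 with doxorubicin. LYZ had no counts in DMSO and 4, 4 and 15 with doxorubicin. The part of these markers in the level of CASP1 was not tested.

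CASP4 (chromosome 11, 104942866 to 104968574), whose product binds bacterial lipopolysaccharide in the cytosol, lies 56.9 kb from CASP1. It had 29.1 and 26.9 CPM in DMSO, 23.7 and 37.0 CPM at 0.2 μM and 24.9 CPM at 0.34 μM. The 0.2 μM libraries thus lay on either side of both DMSO libraries. The log2 fold change was 0.028 ± 0.23 (SE, 95% interval -0.52 to 0.58, edgeR adjusted p = 0.952). Fits without single libraries gave values from -0.20 to 0.15, so that it has no stable direction.

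Between these genes and next to them lie CASP5 and CARD16. CASP5 had 2 and 1 counts in 2 of the doxorubicin libraries and 0 in the others, with both genes chosen after their values were seen. CARD16, a CARD-only relative of CASP1 whose gene lies 4.88 kb from CASP1, had no counts in DMSO, against 5, 5 and 12 counts with doxorubicin. Against a floor of 3 counts over the DMSO group, its summed doxorubicin counts were 4.40-fold higher after normalization. This value leaves out counting error in doxorubicin and the spread between libraries. CARD16 did not pass the filter and was not tested. Of the 75-base windows in its main transcript 15.3% also occur in transcripts of CASP1, and 3.64% of those of CASP1 occur in transcripts of CARD16, so that some reads could be counted for either. For CASP2, CASP4, CASP6, CASP9 and APAF1 no window of the main transcript occurs in a transcript of another gene. The opposite strand was not searched, and APAF1 overlaps ANKS1B in the annotation.

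**Figure D2:**
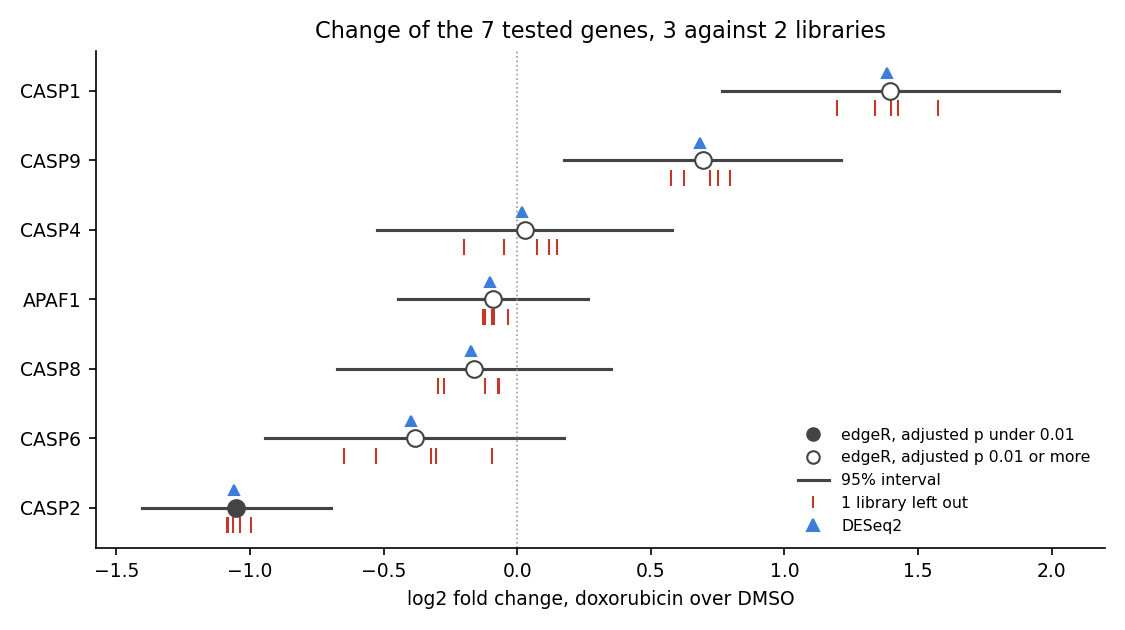
The plot gives the log2 fold change of doxorubicin over DMSO (horizontal axis) of the 7 tested genes from edgeR, with 95% intervals (lines), the values with 1 library left out (red ticks) and the values from DESeq2 (blue triangles). CASP2 at -1.05 is the only filled circle (adjusted p under 0.01), CASP1 at 1.40 and CASP9 at 0.69 have intervals above 0, and those of the other 4 genes span 0.

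For the doses, all libraries were fitted as 3 conditions, where the lone 0.34 μM library is assumed to vary like the others. None of the 7 genes passed the threshold in edgeR between 0.34 and 0.2 μM, and 0 of them had an unadjusted p under 0.05. Over all genes, 0% were called and 0.155% had an unadjusted p under 0.05 in edgeR, and DESeq2 and limma voom also called 0 genes. The intervals below rest on the assumption about the lone library. With so few genes at an unadjusted p under 0.05, their width may be wrong. Over all genes, the median absolute log2 difference was 0.11 between 0.34 μM and replicate 1 of 0.2 μM, 0.28 between 0.34 μM and replicate 2, and 0.29 between these replicates. CASP1 at 0.34 μM lay between the 0.2 μM replicates. The log2 difference of 0.34 μM from 0.2 μM was 0.10 for CASP2 (95% interval -0.55 to 0.75) and -0.0049 for CASP1 (-0.94 to 0.93). It was -0.28 for CASP4 (-1.11 to 0.55), the largest of the 7 in size. Against the shared DMSO libraries, the log2 fold change of CASP2 was -1.09 at 0.2 μM and -0.98 at 0.34 μM. That of CASP9 was 0.72 and 0.65, and that of CASP1 1.40 and 1.39. None of these passed the threshold at a single dose, where the adjusted p of CASP2 from edgeR was 0.0509 and 0.139.

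Levels can be compared between genes only per length, and were divided here by the length of the main transcript of each gene in GENCODE. In DMSO the order of CPM per kb was CASP4 (21.6 ± 1.22, SD, n = 2), CASP6 (15.7 ± 4.29), CASP2 (11.2 ± 0.329), APAF1 (5.15 ± 0.111), CASP8 (4.86 ± 0.502), CASP1 (4.14 ± 0.200), CASP9 (2.15 ± 0.223) and CASP10 (0.0068 ± 0.00013). Only APAF1 and CASP8 overlapped as neighbours in this order. In doxorubicin, CASP1 came after CASP6, with 10.9 ± 2.86 CPM per kb (SD, n = 3), and overlapped it (12.1 ± 2.05). CASP2 came next, with 5.40 ± 0.346, and overlapped APAF1 (4.84 ± 0.332). APAF1 also overlapped CASP8 in doxorubicin, and CASP8 overlapped CASP9. Thus CASP1 stood above CASP2 in doxorubicin and below it in DMSO, while the mean of CASP4 stayed highest and those of CASP9 and CASP10 lowest. These values assume the main transcript, and the authors' annotation may hold other isoforms.

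**Figure D3:**
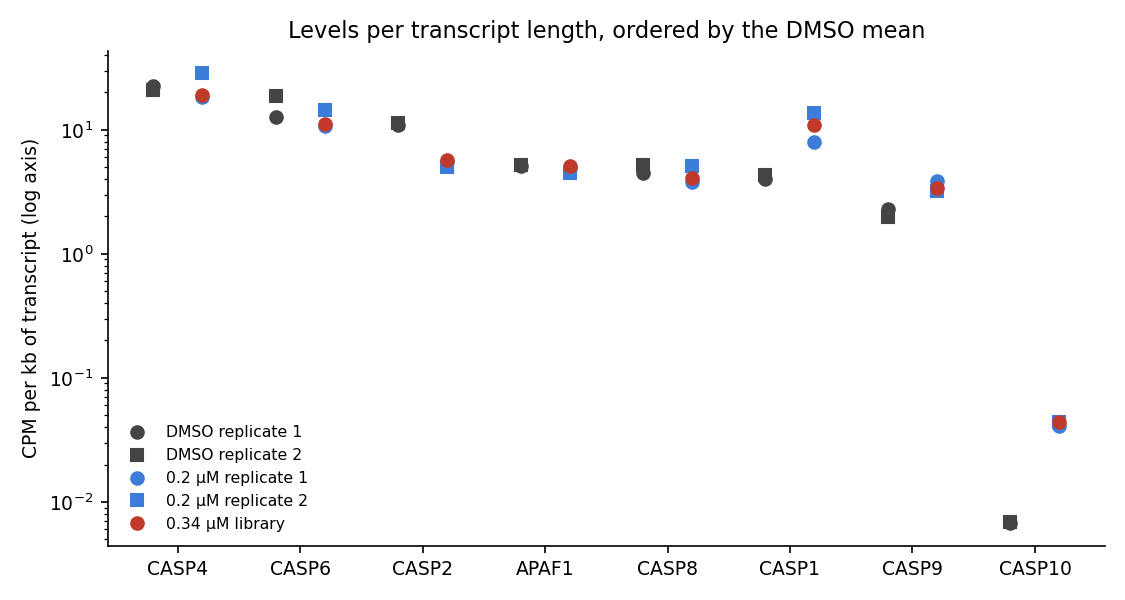
The plot gives CPM per kb of the main transcript (vertical axis, logarithmic) for each library of DMSO (grey) and of 0.2 μM (blue) and 0.34 μM doxorubicin (red), with the genes ordered by their DMSO mean. CASP4 leads with 21.6 in DMSO, CASP1 passes CASP2 in doxorubicin (10.9 against 5.40), and CASP10 lies far below the others at 0.0068 in DMSO and 0.043 in doxorubicin.

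The other genes of the pathway were taken from 6 lists with 70 genes, of which 54 were tested. Of these 2 rose, 5 fell and 47 did not pass the threshold, where 1.29% of all genes tested were called higher and 2.73% lower, and the median log2 fold change was -0.022. Of 4 tested genes among other caspases and their relatives, none passed, with a median log2 fold change of 0.0062. CARD8, which holds a CARD domain, had a log2 fold change of -0.27 and the paracaspase gene MALT1 one of -0.060, both named after their values were seen. Of 6 tested genes for mitochondrial release (median 0.17) none passed, and the largest value was that of HTRA2, a protease that binds inhibitors of apoptosis (0.60 ± 0.27 on the log2 scale, SE, edgeR adjusted p = 0.193). It was 0.29 with DMSO replicate 1 removed and 0.97 with DMSO replicate 2 removed.

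Of 6 tested inhibitors of apoptosis proteins (median log2 fold change -0.066), 1 fell, beside 2.73% of all genes tested. This was BIRC5, which encodes survivin and also acts in mitosis, with 101 and 166 CPM in DMSO and 9.59, 9.27 and 7.38 CPM in doxorubicin (-3.94 ± 0.25 on the log2 scale, SE, edgeR adjusted p = 0.000702). It was called with each library left out. XIAP, the direct inhibitor of caspase-9, had a log2 fold change of -0.092 and BIRC2 one of 0.058, both named after their values were seen. Of 11 tested genes of initiator platforms (median 0.42), 1 fell, beside the same 2.73%. Of the 11, 8 had a positive log2 fold change, as had 7254 of all 14187 genes tested. DESeq2 called 3 of the 11 higher and 1 lower, where it called 914 of all genes tested higher and 1110 lower. The gene that fell in edgeR was CASP8AP2. CASP8AP2, named for its binding to caspase-8 and also needed for histone mRNA processing, had 38.9 and 36.6 CPM in DMSO and 15.5, 14.6 and 14.6 CPM in doxorubicin (-1.34 ± 0.15 on the log2 scale, SE, edgeR adjusted p = 0.00329). Its call was lost with any single library left out, with an adjusted p from edgeR of up to 0.0265.

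Of 8 tested genes in the list of inflammasome sensors and products (median 0.88), 2 rose, beside 1.29% of all genes tested. Neither of them encodes a sensor or a cytokine, and no tested sensor or cytokine gene of the list passed in the main edgeR fit. GSDME (DFNA5 in the count table), a pore-forming gasdermin, had 39.1 and 48.5 CPM in DMSO and 88.6, 114 and 98.0 CPM in doxorubicin (1.19 ± 0.18 on the log2 scale, SE, edgeR adjusted p = 0.00962). NINJ1, which ruptures the plasma membrane, had 36.7 and 44.7 CPM in DMSO and 99.0, 82.9 and 112 CPM in doxorubicin, with a log2 fold change of 1.27 ± 0.19 (SE, edgeR adjusted p = 0.00895). Both calls were lost with any single library left out, with adjusted p from edgeR of up to 0.0392 and 0.0423. That of GSDME was also lost with DESeq2's size factors in edgeR. The sensor NLRP1 (1.41 ± 0.22 on the log2 scale, SE, edgeR adjusted p = 0.0104) lay just outside the threshold. NLRP1 passed with DESeq2 (adjusted p = 2.53e-07) and in edgeR without the filter (adjusted p = 0.00223). With limma voom it did not pass (adjusted p = 0.0104). The other tested sensors, NLRP3, NLRC4 and NOD1, had log2 fold changes of -1.33, -0.42 and -0.59 and did not pass. PYCARD, the adaptor between sensors and caspase-1, had 3 counts in replicate 1 of 0.2 μM and 0 in the other libraries. These sensors and PYCARD were named after their values were seen.

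Of 19 tested genes for caspase substrates (median -0.23), 15 had a negative log2 fold change, as had 6933 of all 14187 genes tested. Of the 19, 3 passed the threshold, all lower, beside 2.73% of all genes tested. DESeq2 called 1 of the 19 higher and 6 lower. The largest rise was that of GSN (1.99 ± 0.40 on the log2 scale, SE), named after its values were seen. GSN did not pass in edgeR (adjusted p = 0.0221) but passed with DESeq2 (adjusted p = 1.83e-06). The 3 genes that passed in edgeR were LMNB1, PARP2 and PARP1. LMNB1, the gene of lamin B1, had 143 and 158 CPM in DMSO and 9.09, 8.86 and 7.0 CPM in doxorubicin (-4.18 ± 0.18 on the log2 scale, SE, edgeR adjusted p = 0.000341). PARP1 and PARP2 encode poly-ADP-ribose polymerases of DNA repair. PARP2 had 30.7 and 33.4 CPM in DMSO and 10.1, 8.27 and 7.85 CPM in doxorubicin (-1.87 ± 0.18 on the log2 scale, SE, edgeR adjusted p = 0.00211). PARP1 had 134.7 and 180.1 CPM in DMSO and 78.1, 73.8 and 69.4 CPM in doxorubicin (-1.09 ± 0.17, SE, edgeR adjusted p = 0.00973). PARP1 was also not called by limma voom (adjusted p = 0.0113). Its call was lost with any single library left out, that of PARP2 in 4 of 5 cases and that of LMNB1 in none.

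**Figure D4:**
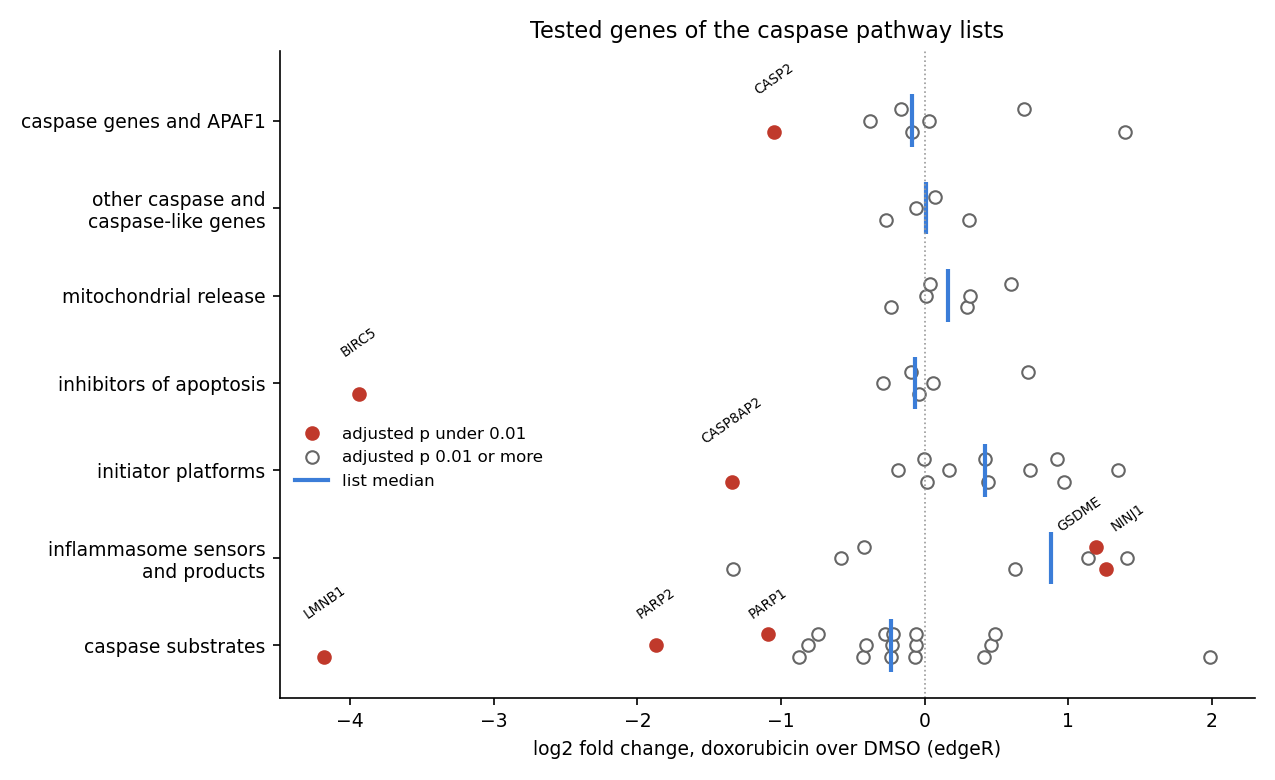
Each circle is the log2 fold change (horizontal axis) of a tested gene in the list named on the left, filled in red where the adjusted p from edgeR was under 0.01, and blue lines are list medians. Filled circles to the left of 0 are CASP2, BIRC5, CASP8AP2, LMNB1, PARP2 and PARP1, those to the right are GSDME and NINJ1, and the list medians lie between -0.23 and 0.88.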

How the data were processed

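Poly-A RNA of 5 RPE1 libraries was sequenced. Per the study's methods and the labels, the authors aligned paired-end reads with STAR (hg38) and used Rsubread with the annotation from iGenomes to obtain a count for each gene. The authors deposited raw counts without normalization. The sources used here give neither versions nor the handling of multi-mapping reads. A deposited table of the authors' own fold changes and p-values was not used.

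The counts were tested with edgeR 4.0.16 under R 4.3.3 (TMM normalization, default filter with minimum count 10 and minimum total 15, quasi-likelihood test of 3 doxorubicin against 2 DMSO libraries, as the study pooled them). The SE of a log2 fold change is its size over the root of F, and 95% intervals use the moderated degrees of freedom. A prior count of 2 was used for log2 CPM. Alternatives were DESeq2 1.42.0, limma voom 3.58.1, other normalization, no filter, single doses, leaving out each library and a replicate block. The pipeline was tested on simulated data. Libraries of one condition differed by more than sampling noise (chi-square of 117 and 75.3 per degree of freedom, DMSO and 0.2 μM).

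The members and lists were chosen with earlier results of these data known. Named are all members, genes of the lists past the threshold or, in a list with none, the gene with the largest change, and the 2 genes whose centred log2 CPM was most like that of a member past the threshold. For 1 list with none past the threshold, that gene is not reported here. Others are said to be chosen after their values were seen. Of the members, CASP8 and CASP9 overlap no other gene annotated in RefSeq. In GENCODE, 2.79% of the 75-base windows of the main CASP8 transcript also occur in a transcript of another gene. For CASP10 this share is 0.804%. Gene positions and sequences are from RefSeq (GRCh38.p14), matched by symbol, and transcript lengths from GENCODE v44. The 7 tested members had 143 to 1339 counts per library, and CASP10 had at most 9. The parts of counting error and of the spread between libraries in the precision were not separated for single members.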

Additional observations from a re-analysis of the deposited data

How the results depend on the processing

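Over all genes, DESeq2 called 2026 genes, edgeR without the filter 1020, 0.2 μM alone 171, 0.34 μM alone 89, and edgeR with a library left out between 49 and 215, against 571. Of the members, DESeq2 and edgeR without the filter each called 2 (CASP1 and CASP2), while 0 were called at 0.2 μM alone, at 0.34 μM alone and with any library left out (0 in each of 5 fits). Of the other pathway genes, DESeq2 called 15, each dose alone 2, and the fits with a library left out between 2 and 3, against 7. limma voom and DESeq2 size factors called CASP2 alone. These counts come from different sets of genes. DESeq2 and edgeR without the filter each held 20717 genes, with 8 members and 68 other pathway genes. The main fit held 14187, with 7 and 54. Among the 14187 genes of the main fit, DESeq2 called 14.3% and the main fit 4.02%. The direction of CASP4 reversed with limma voom (-0.0098 on the log2 scale), at 0.34 μM alone (-0.17) and among the fits without 1 library (-0.20 to 0.15). All other tested members kept their direction in all 12 alternatives. The cause of these changes was not tested.

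Replicate numbers are shared by DMSO and 0.2 μM, and the numbers may be names only. Over genes, the difference between replicates 1 and 2 in DMSO correlated with that at 0.2 μM with r = 0.528, and genes are not independent replicates. With the replicate number as a block in these 4 libraries, 1249 of 13891 genes were called. Among them were 2 of 7 members (CASP1 and CASP2) and 10 of 53 other pathway genes. CASP10, CASP5 and CARD16 are limited by their depth of at most 12 counts per library.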
